A study of Mus musculus with 18 samples.

Results

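The 10 genes described here encode amino acid transporters of the plasma membrane: Slc3a2, Slc7a5, Slc7a11, Slc43a1, Slc7a1, Slc7a3, Slc1a4, Slc1a5, Slc38a2 and Slc6a9. They were chosen by gene symbol from the 20207 genes listed in each file, and all 10 had at least 1 read in each of the 18 samples. Poly(A) RNA was sequenced from NIH3T3 cells, an established line of mouse embryonic fibroblasts. The cells stably expressed DD-sfGFP, a destabilizing domain derived from FKBP that was joined to superfolder GFP, from a PiggyBac transposon, and had been sorted as a population for high GFP. The ligand S1, which keeps the domain folded, was present in every group, controls included. The groups are an unstressed control labelled 0 min, heat stress (HS) for 45 and 135 min, and tunicamycin (Tu) for 45, 135 and 405 min, with 3 samples in each. The only control is at 0 min, so time in culture and stress cannot be told apart in a comparison with it, and HS has no sample at 405 min.

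Amino acid transporters decide which amino acids a cell can take up, release or exchange. SLC3A2 (4F2hc, CD98) is a heavy chain that does not carry amino acids itself and brings a light chain to the membrane. SLC7A5 (LAT1) and SLC7A11 (xCT) are light chains that exchange large neutral amino acids, and cystine for glutamate, respectively. When amino acids run short or unfolded protein builds up in the endoplasmic reticulum, phosphorylation of eIF2α favours translation of ATF4, and several transporter genes are known targets of ATF4. Tunicamycin blocks N-linked glycosylation and so causes unfolded protein in the endoplasmic reticulum.

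ATF4 binds with C/EBP proteins to a C/EBP-ATF response element (CARE), and its core, TGATGNAA, was searched on both strands of the RefSeq promoter windows of build GRCm38.p6. It was found in 3.97% of 32851 windows. Windows were matched for 7 of the 10 transporters, with no entry for Slc7a5, Slc7a3 and Slc1a5. These 7 genes had 10 windows, and 2 of the 10 windows, from 2 genes, held the core. Both are shown because their transcripts also rose under tunicamycin, with the match to the core in capitals.
Slc7a11, minus strand of chr3:50443614-50443733: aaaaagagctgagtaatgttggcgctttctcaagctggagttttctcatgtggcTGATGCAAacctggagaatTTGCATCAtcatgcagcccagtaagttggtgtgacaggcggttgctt
Slc1a4, minus strand of chr11:20332704-20332813: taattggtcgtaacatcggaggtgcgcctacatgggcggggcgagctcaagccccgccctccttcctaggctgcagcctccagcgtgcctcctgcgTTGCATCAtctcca
In Slc7a11 the core lay at positions -66 to -59 on the sense strand and again at -47 to -40 on the antisense strand, counted from the transcription start. In Slc1a4 it lay once, antisense, at -4 to 3 across the start. The heat shock element letters GAANNTTC were in 7.86% of all windows and the endoplasmic reticulum stress element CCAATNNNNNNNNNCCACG in 0.119%, and neither was in a window of the 7 transporters. No motif overlapped another among these matches. A match is a run of letters and was not tested for binding.

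Library totals ran from 33415592 to 66478268 reads on genes, so that 3 reads corresponded to 0.0451 to 0.0898 CPM (a read count relative to the size of its library), a floor that covers counting error only. CPM values below are on 1 scale over the 18 samples, and fold changes come from the separate fit of each comparison. All 10 fibroblast markers were present in the control, from 253.3 to 8712 CPM, and 8 of 10 markers of other cell types stayed under 1 CPM in every sample, with Tubb3 and Cd68 as the exceptions. Stress markers did not all follow the labels. Hspa1b, an inducible HSP70, was 152-fold higher after 135 min of HS (adjusted p = 0.0058, edgeR), and Hspa5, the endoplasmic reticulum chaperone BiP, 13.2-fold higher after 405 min of tunicamycin (adjusted p = 4.64e-06, edgeR). At 135 min of tunicamycin, however, Hspa5 had 332.9 to 490.7 CPM, below every control sample (655.9 to 735.4 CPM; log2 fold change -0.72, adjusted p = 0.135, edgeR), and at 135 min of HS it was 1.94-fold higher than in the control (adjusted p = 0.0312, edgeR). The libraries labelled tunicamycin 135 min thus lacked a rise of this marker, while Ddit3 had 161.1 to 287.2 CPM in them against 69.4 to 74.0 CPM in the control (adjusted p = 0.0706, edgeR), and every direction given for them rests on that label. Some libraries stood apart from their replicates. Replicate 3 of HS at 45 min correlated with replicates 1 and 2 at 0.926 and 0.895 over 10857 genes (log2 CPM), replicates 1 and 2 of HS at 135 min at 0.898, and replicate 1 of the control with the other two at 0.964 and 0.966, against 0.997 between control replicates 2 and 3. The labels do not say whether replicates were separate cultures, so p-values measure the spread between these samples, which may be technical.

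In unstressed cells, the levels per length of transcript covered a wide range (RPKM, mean ± SD, n = 3). Slc7a5 had 115.5 ± 19.6 RPKM, Slc3a2 103.1 ± 8.69, and Slc38a2, which encodes the sodium-coupled neutral transporter SNAT2, 78.0 ± 8.67 RPKM. Slc1a5, which encodes the glutamine exchanger ASCT2, had 46.1 ± 2.74 RPKM and Slc6a9, which encodes the glycine transporter GlyT1, 45.9 ± 18.2 RPKM. Slc7a1, for the arginine and lysine transporter CAT1, had 24.0 ± 2.29 RPKM and Slc1a4, for the neutral exchanger ASCT1, 17.1 ± 2.03 RPKM. Slc43a1 (LAT3), Slc7a11 and Slc7a3 (CAT3, a second carrier of cationic amino acids) were the lowest, at 3.04, 1.19 and 0.347 RPKM. Within this order, the mean of Slc3a2 lay within the spread of Slc7a5, though not the reverse. Slc1a5 and Slc6a9 lay within each other's spread. After 405 min of tunicamycin, Slc3a2 was first with 598 RPKM, ahead of Slc7a5 with 315 RPKM and Slc6a9 with 224 RPKM.

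The transporters rose most widely late under tunicamycin. At 405 min, 8 of the 10 were higher than in the control (edgeR's quasi-likelihood test, adjusted p under 0.05), where 23.3% of all genes tested were higher and 23.5% lower, and their median log2 fold change was 1.21 against -0.01 over all genes tested. Of the 10, 3 were higher at 45 min of tunicamycin (Slc3a2, Slc1a4 and Slc7a1), against 4.01% of genes tested, with a median of 0.52. None of the 10 passed at 135 min of tunicamycin in edgeR, where 0.134% of genes tested passed in either direction. 4 of them had an unadjusted p under 0.05, beside 2369 of all genes tested. The DESeq2 Wald test called 1 transporter, Slc7a11, lower, and 318 genes higher and 321 lower. After 135 min of HS 1 of 10 was higher (Slc7a1), against 4.75% of genes tested, and after 45 min of HS none, against 0%. In that last comparison 2 transporters and 2480 genes had an unadjusted p under 0.05, and the DESeq2 Wald test called 1 transporter, Slc7a3, lower, and 386 genes higher and 65 lower.

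**Figure D1:**
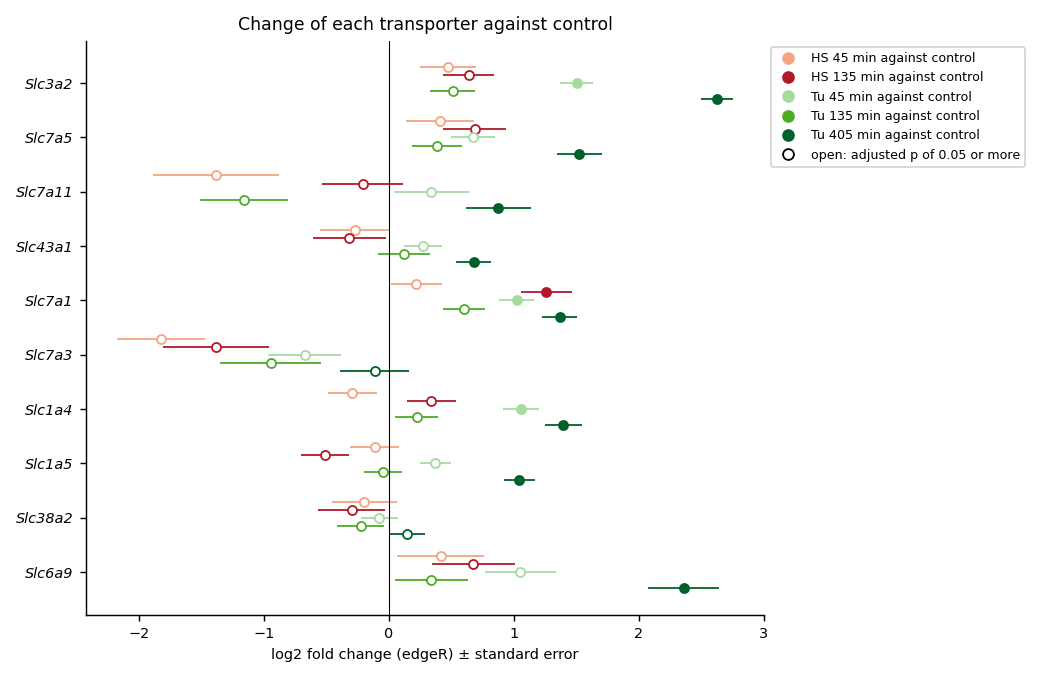
Log2 fold change of each of the 10 transporters (y axis) against control (x axis, edgeR, whiskers 1 standard error), coloured by stress and time, with filled points for an adjusted p under 0.05. The 8 filled points at 405 min of tunicamycin run from 0.68 (Slc43a1) to 2.63 (Slc3a2), and the only filled point under HS is Slc7a1 at 135 min, at 1.26.

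Slc3a2 (chr19:8781372-8788387 in mm9), the shared heavy chain, had the largest rise of the 10 at 405 min of tunicamycin. It had 293.7, 312.1 and 324.1 CPM in the 3 control samples and 1903, 1947 and 1810 CPM at 405 min of tunicamycin. The earlier tunicamycin times gave 786, 869 and 956 CPM at 45 min, and 535, 385 and 393 CPM at 135 min. Every tunicamycin sample thus lay above every control sample, with the middle time nearest to the control. The rise was 6.18-fold at 405 min (log2 fold change 2.63, standard error 0.13, adjusted p = 1.01e-05, edgeR) and 2.83-fold at 45 min (1.50, standard error 0.13, adjusted p = 0.00177, edgeR). The 135 min difference from control was 0.51 on the log2 scale and did not pass (adjusted p = 0.206, edgeR). Under HS, Slc3a2 had 490.2, 468.1 and 333.2 CPM at 45 min and 428.5, 575.4 and 445.7 CPM at 135 min. Both HS groups lay above the control without overlap, and neither difference passed (log2 fold changes 0.47 and 0.64, adjusted p = 0.268 and 0.0879, edgeR). Without replicate 3 of HS at 45 min, the first of these was 0.63 (adjusted p = 0.0177, edgeR), but that omission opened the whole comparison, from 0% of genes called to 21.5% higher and 23.9% lower.

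Slc7a5 (chr8:124405046-124431586), the light chain of LAT1, had the highest mean RPKM of the list in the control. The mean of Slc3a2 lay within its spread, and Slc3a2 was the higher of the pair in control replicate 3 (110.7 against 98.8 RPKM). Slc7a5 had 588, 449 and 395 CPM in the control and 1462, 1342 and 1258 CPM at 405 min of tunicamycin, and the groups did not overlap. The rise was 2.88-fold (log2 fold change 1.52, standard error 0.178, adjusted p = 0.000354, edgeR). At 45 min of tunicamycin, with 708, 724 and 832 CPM, it was above all control samples at a log2 fold change of 0.67, just short of the threshold (adjusted p = 0.0613, edgeR). Replicate 1 was the highest control sample, and without it the same difference was 0.85 (adjusted p = 0.00824, edgeR), as the share of all genes called higher went from 4.01% to 10.9%. By 135 min of tunicamycin Slc7a5 had 689, 576 and 588 CPM, which overlapped the control (log2 fold change 0.39, adjusted p = 0.34, edgeR). HS gave 650.0, 784 and 468 CPM at 45 min and 626, 937 and 742 CPM at 135 min, with wide spread in both groups. The 45 min samples overlapped the control, and those at 135 min all lay above it. Neither difference passed (log2 fold changes 0.41 and 0.69, adjusted p = 0.361 and 0.119, edgeR).

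Slc7a11 (chr3:50168858-50247535), the light chain of the cystine exchanger, was scarce, with 142 to 1698 reads per sample. The control samples had 7.78, 16.2 and 14.2 CPM. Tunicamycin gave 18.7, 17.2 and 11.9 CPM at 45 min, 3.70, 7.18 and 5.94 CPM at 135 min, and 26.8, 19.7 and 22.5 CPM at 405 min. The order was therefore lowest at 135 min and highest at 405 min, with the control between them and no overlap with either. At 405 min the log2 fold change was 0.88 (standard error 0.259, adjusted p = 0.0237, edgeR). This call was lost without replicate 1 of that group (0.73, adjusted p = 0.107, edgeR) or without its replicate 3 (0.89, adjusted p = 0.0631, edgeR), where 19.8% and 16.1% of genes tested were higher. It was also lost in 4 of 10 other settings. These were a shared fit of all 6 groups (0.85, adjusted p = 0.105, edgeR), total counts without TMM (0.77, adjusted p = 0.0555, edgeR), a block on the replicate number (0.92, adjusted p = 0.0525, edgeR) and a log2 fold change of at least 1. At 135 min of tunicamycin the log2 fold change was -1.16 (adjusted p = 0.166, edgeR). Between 135 and 405 min of tunicamycin, Slc7a11 rose 4.04-fold (log2 2.01, standard error 0.26, adjusted p = 0.000849, edgeR). HS for 45 min gave 2.71, 3.40 and 8.50 CPM, the last from the replicate that stood apart, and overlapped the control (log2 fold change -1.38, adjusted p = 0.234, edgeR). Without that replicate the log2 fold change was -2.06 (adjusted p = 0.00475, edgeR), when 23.9% of all genes tested were called lower. By 135 min of HS, values of 12.9, 9.02 and 11.1 CPM lay among the control samples.

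Heavy and light chains were set side by side as the ratio of Slc3a2 RPKM to the summed RPKM of 6 light chains known to pair with it (Slc7a5, Slc7a6, Slc7a7, Slc7a8, Slc7a10 and Slc7a11). As group means, Slc7a5 made up 85.8% of this sum in the control and 97.1% at 405 min of tunicamycin. The highest group mean of Slc7a11 was 0.919%, in the control. The ratio was 0.605, 0.809 and 0.935 in the control, 1.41, 1.54 and 1.52 at 45 min of tunicamycin and 1.72, 1.93 and 1.91 at 405 min. Both of these groups lay above the control without overlap, each with a two-sided exact permutation p of 0.1, the smallest that 3 against 3 samples allow. At 135 min of tunicamycin the ratio was 0.908 ± 0.101, and under HS 0.881 ± 0.105 at 45 min and 0.818 ± 0.0376 at 135 min (SD, n = 3), with exact permutation p of 0.4, 0.5 and 0.8 against the control ratio of 0.783 ± 0.167. A ratio of transcripts gives no amount of assembled transporter.

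**Figure D2:**
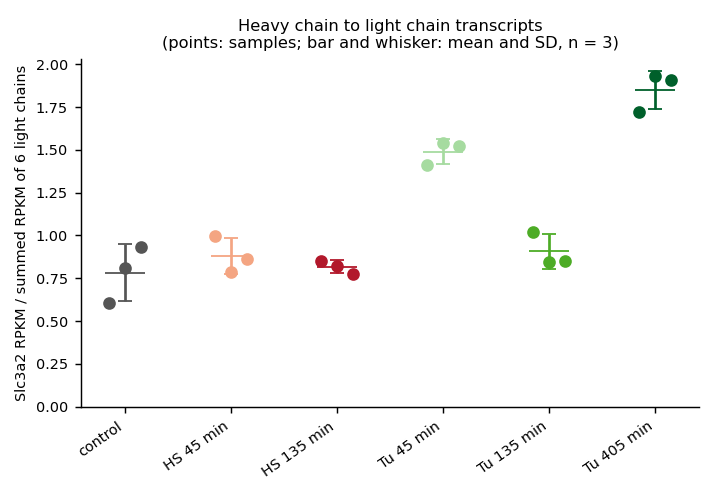
Ratio of Slc3a2 RPKM to the summed RPKM of 6 light chain genes (y axis) in each sample (points) of the 6 groups (x axis), with mean and SD of 3 samples. The samples at 45 and 405 min of tunicamycin lie between 1.41 and 1.93, above the control samples at 0.605 to 0.935.

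Slc43a1 (chr2:84679565-84703743, 1 of 2 positions in the files) encodes LAT3, a carrier of large neutral amino acids that needs no heavy chain. It had 9.64, 8.27 and 8.88 CPM in the control and 15.01, 13.4 and 13.8 CPM at 405 min of tunicamycin, with no overlap. The rise was 1.60-fold (log2 fold change 0.68, standard error 0.138, adjusted p = 0.00481, edgeR), the smallest of the 8. In the other groups its values ran from 5.03 CPM (HS, 135 min) to 11.4 CPM (tunicamycin, 45 min), and no difference from the control passed.

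Among the carriers of cationic amino acids, Slc7a1 was the one transporter called under both stresses. Slc7a1 (chr5:149138986-149211480) had 232.9, 188.7 and 184.2 CPM in the control, 262.1, 212.4 and 231.1 CPM at 45 min of HS and 476, 544 and 431 CPM at 135 min of HS. Tunicamycin gave 385, 403 and 432 CPM at 45 min, 319, 306 and 285 CPM at 135 min and 504, 501 and 537 CPM at 405 min. Each group except HS at 45 min lay above all control samples. The log2 fold change was 1.26 at 135 min of HS (standard error 0.206, adjusted p = 0.0199), 1.02 at 45 min of tunicamycin (standard error 0.138, adjusted p = 0.0096) and 1.37 at 405 min (standard error 0.14, adjusted p = 0.000188, all edgeR). Leaving out 1 sample lost the HS call in 3 of 6 cases (without replicate 3 of HS, or replicate 2 or 3 of the control, adjusted p = 0.114 to 0.126, log2 fold changes 1.20 to 1.34, edgeR). In those cases the share of all genes called higher fell from 4.75% to between 0.0785% and 0.0943%. The difference between HS and tunicamycin at 135 min was 0.65 and did not pass (adjusted p = 0.103, edgeR). Slc7a3 (chrX:98274560-98280691) was near the limit of detection, with 8 to 64 reads per sample. The control had 1.21, 0.732 and 0.961 CPM, HS 0.267, 0.218 and 0.320 CPM at 45 min and 0.522, 0.177 and 0.387 CPM at 135 min. The HS samples all lay below the control samples, with log2 fold changes of -1.82 and -1.38 that did not pass (adjusted p = 0.227 and 0.0816, edgeR), while at 405 min of tunicamycin, with 1.01, 0.652 and 0.954 CPM, the groups overlapped, as they did at the earlier tunicamycin times (0.290 to 0.766 CPM). Without replicate 3 of HS at 45 min, the first of these log2 fold changes was -1.97 (adjusted p = 0.00619, edgeR), again beside 23.9% of genes called lower.

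The neutral amino acid carriers split by gene. Slc1a4 (chr11:20202183-20232716), which exchanges alanine, serine and cysteine, had 91.5, 68.3 and 76.8 CPM in the control, 163, 153 and 171 CPM at 45 min of tunicamycin, 94.8, 87.4 and 90.8 CPM at 135 min and 224, 188 and 202 CPM at 405 min. The early and late tunicamycin groups were above the control without overlap, and the middle one overlapped it. The rise was 2.08-fold at 45 min (log2 fold change 1.06, standard error 0.143, adjusted p = 0.0096, edgeR) and 2.63-fold at 405 min (1.39, standard error 0.148, adjusted p = 0.000226, edgeR). The 45 min calls of Slc1a4 and Slc7a1 each failed in 3 of 6 cases when 1 sample was left out (replicate 2 of that group, or replicate 2 or 3 of the control, adjusted p = 0.0543 to 0.0741, edgeR), and the 45 min call of Slc3a2 in none. In those cases the share of all genes called higher fell from 4.01% to between 0.432% and 0.66%. Under HS, Slc1a4 had 66.0, 66.7 and 60.6 CPM at 45 min, all below the control, and 106, 97.6 and 95.7 CPM at 135 min, all above it, and neither difference passed (adjusted p = 0.365 and 0.271, edgeR).

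Slc1a5 (chr7:17366695-17383623), the glutamine exchanger, had 165, 138 and 144 CPM in the control and 295.4, 308.6 and 304.8 CPM at 405 min of tunicamycin, with no overlap. The rise was 2.06-fold (log2 fold change 1.04, standard error 0.123, adjusted p = 0.000357, edgeR). At 45 min of tunicamycin, 188, 180.3 and 204 CPM were also above every control sample, and the log2 difference of 0.37 missed the threshold (adjusted p = 0.115, edgeR). Without replicate 1 of the control it was 0.44 (adjusted p = 0.0244, edgeR), when 10.9% of genes tested were called higher. At 135 min of tunicamycin, 144, 143 and 141 CPM overlapped the control. After 135 min of HS, by contrast, 100.1, 119 and 94.9 CPM lay below every control sample, at a log2 fold change of -0.51 (adjusted p = 0.126, edgeR). Slc38a2 (chr15:96517823-96530129) is a textbook case of a transporter induced by amino acid starvation. It had 491.5, 373 and 406 CPM in the control and 475, 457 and 456 CPM at 405 min of tunicamycin, with overlapping groups, and a log2 difference of 0.15 ± 0.141 (standard error, adjusted p = 0.418, edgeR). Without replicate 1 of the control it was 0.28 (adjusted p = 0.0241, edgeR), when 31.6% of genes tested were called higher. No other group of Slc38a2 was separate from the control, and its HS samples ranged from 247.9 to 488 CPM.

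Slc6a9 (chr4:117507863-117541910), the glycine transporter, rose next after Slc3a2. The control had 266, 128 and 138 CPM, with replicate 1 well above the other two, and 405 min of tunicamycin gave 941, 866 and 892 CPM, all above the control. The rise was 5.14-fold (log2 fold change 2.36, standard error 0.285, adjusted p = 0.000403, edgeR). The 45 min tunicamycin samples had 338, 335 and 421 CPM, again above every control sample, and the log2 difference of 1.05 missed the threshold (adjusted p = 0.0684, edgeR). Without replicate 1 of the control that difference was 1.46 (adjusted p = 0.00338, edgeR), when 10.9% of genes tested were called higher. Tunicamycin for 135 min gave 257, 199 and 212 CPM, and HS gave 283, 255 and 171 CPM at 45 min and 244, 368 and 239 CPM at 135 min. All of these groups overlapped the control.

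**Figure D3:**
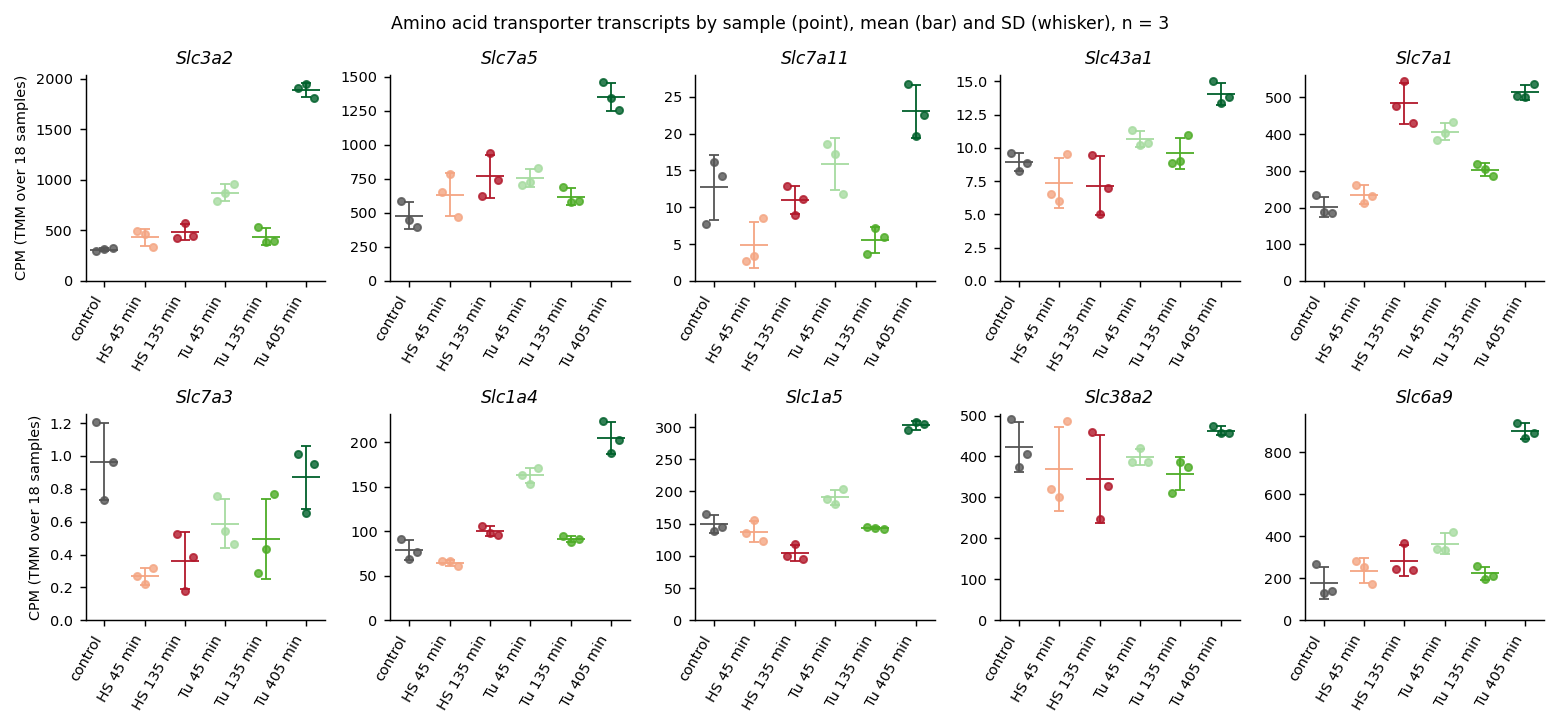
CPM (y axis, linear, from 0) of each transporter in every sample (points) of the 6 groups (x axis), with mean and SD of 3 samples. In all 10 panels the mean at 135 min of tunicamycin lies below those at 45 and 405 min, and in 9 of 10, all but Slc7a3, the mean at 405 min is the highest of the 6 groups.

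Times of tunicamycin were also compared directly. From 45 to 135 min, the mean of each of the 10 transporters was lower. Their median log2 fold change was -0.42, against -0.02 over all genes tested. Of the 10, 6 had an unadjusted p under 0.05 (edgeR), beside 2010 of 12731 genes tested. Only Slc1a4 passed, by -0.83 on the log2 scale (standard error 0.111, adjusted p = 0.047, edgeR), where 0.173% of genes tested were lower. Leaving out 1 sample lost that call in 5 of 6 cases, each with 0% of genes tested called lower. Replicate 1 at 135 min stood apart from its replicates (0.955 and 0.954 against 0.995 between replicates 2 and 3). Without it, 4 transporters were lower in place of 1, and 0.872% of genes tested. From 135 to 405 min, 8 of 10 rose (edgeR), against 21.4% of genes tested. Slc3a2 rose 4.25-fold, Slc7a11 4.04-fold and Slc6a9 3.98-fold, and Slc43a1 the least at 1.44-fold (log2 0.53, adjusted p = 0.0268, edgeR). Leaving out 1 sample lost the Slc43a1 call in 4 of 6 cases, where 13.3% to 16.9% of genes tested were higher. Slc38a2 (log2 0.35, adjusted p = 0.0681, edgeR) and Slc7a3 (0.81, adjusted p = 0.109, edgeR) did not pass. Between 45 and 135 min of HS none of the 10 passed in edgeR, nor did any gene (0% of those tested). There 3 transporters and 1481 genes had an unadjusted p under 0.05. The DESeq2 Wald test called 1 transporter higher, and 194 genes higher and 209 lower.

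The stresses were also compared at equal times. At 45 min, the median log2 fold change of HS against tunicamycin was -0.71 for the 10 transporters and -0.05 over all genes tested. Of the 10, 7 had an unadjusted p under 0.05 (edgeR), beside 3061 of 12731 genes tested, and 1 passed. This was Slc1a4, lower under HS (log2 fold change -1.34, standard error 0.136, adjusted p = 0.0455, edgeR), where 0.141% of genes tested were lower. Leaving out replicate 3 of HS, the sample that stood apart, gave 9 lower transporters in place of 1, but also 28.8% of all genes tested lower and 26.8% higher, and leaving out any other single sample called no gene in either direction. Slc3a2 differed by -1.02 (adjusted p = 0.1, edgeR) and Slc7a1 by -0.79 (adjusted p = 0.0939, edgeR) with all samples included. At 135 min none of the 10 passed in edgeR, against 2.12% of genes tested in either direction. Of the 10, 3 had an unadjusted p under 0.05, beside 2543 of all genes tested. The DESeq2 Wald test called 2 transporters higher under HS, and 715 genes higher and 541 lower.

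Of 30 other genes for amino acid transporters of the plasma membrane, 15 had reads in every sample. At 405 min of tunicamycin 2 of the 15 were higher and 5 lower, against 23.3% and 23.5% of all genes tested, shares so near in a list this short that the counts are no result about the list, and the median log2 fold change was -0.30. A shared fit of all 6 groups gave 1 higher and 3 lower. Slc7a2, which encodes the cationic carrier CAT2, rose by a log2 fold change of 1.39 (adjusted p = 0.000244, edgeR). Slc6a6, the taurine transporter, fell by 1.51 on the log2 scale (adjusted p = 0.00042, edgeR), and Slc7a6, another light chain of Slc3a2, fell by 1.18 (adjusted p = 0.000277, edgeR). Slc7a6 had 74.6 to 76.1 CPM in the control and 30.1 to 37.9 CPM at 405 min, with no overlap. After 135 min of HS 1 of the 15 was higher, Slc1a7, a glutamate transporter known from the retina, with 0.446 to 0.502 CPM in the control and 2.06 to 4.85 CPM under HS (log2 fold change 2.84, adjusted p = 0.0144, edgeR). None of the 15 was higher and 1 was lower at 45 min of tunicamycin in edgeR, against 2.17% of genes tested that were lower.

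Carriers of intracellular membranes were counted in the same way. Of 9 lysosomal transporters tested of 10, 2 were higher and 1 lower at 405 min of tunicamycin, and of 8 mitochondrial carriers tested of 10, 1 was higher and 3 lower. These counts too are near the shares of all genes (23.3% and 23.5%) and are no result about the lists. Slc38a7, which exports glutamine from lysosomes, rose by a log2 fold change of 1.38 (adjusted p = 0.00058, edgeR) and Ctns, the cystine exporter cystinosin, by 0.55 (adjusted p = 0.0387, edgeR), while Slc36a4 fell by 0.68 (adjusted p = 0.0123, edgeR). The count of lower lysosomal genes became 0 without replicate 3 of either group and in the shared fit, and 2 without replicate 1 of the control, and the count of higher ones 1 in the shared fit and in 5 of 6 cases that left out 1 sample (all but replicate 1 of the control). Among the mitochondrial carriers, Slc25a38, the glycine carrier that supplies haem synthesis, rose by 1.27 (adjusted p = 0.000206, edgeR), and Slc25a15, the ornithine carrier, fell by 1.13 (adjusted p = 0.000517, edgeR) and Slc25a13, an aspartate and glutamate carrier, by 1.06 (adjusted p = 0.00484, edgeR). After 135 min of HS, Slc36a1, a proton-coupled lysosomal carrier, was higher by 0.94 (adjusted p = 0.046, edgeR), as were Slc25a29, a carrier of basic amino acids, by 1.68 (adjusted p = 0.0333, edgeR) and Slc25a38 by 1.39 (adjusted p = 0.0416, edgeR). The HS counts of higher genes in all 3 of these transporter lists, Slc1a7 included, became 0 without replicate 2 or 3 of the control or replicate 3 of HS, and with the replicate block. Over all genes tested, 605 higher became 12, 10 and 11 with these omissions, and 0 with the block. The mitochondrial count became 1 without replicate 1 of the control, and that omission gave 3 higher mitochondrial carriers in place of 1 at 405 min of tunicamycin.

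**Figure D4:**
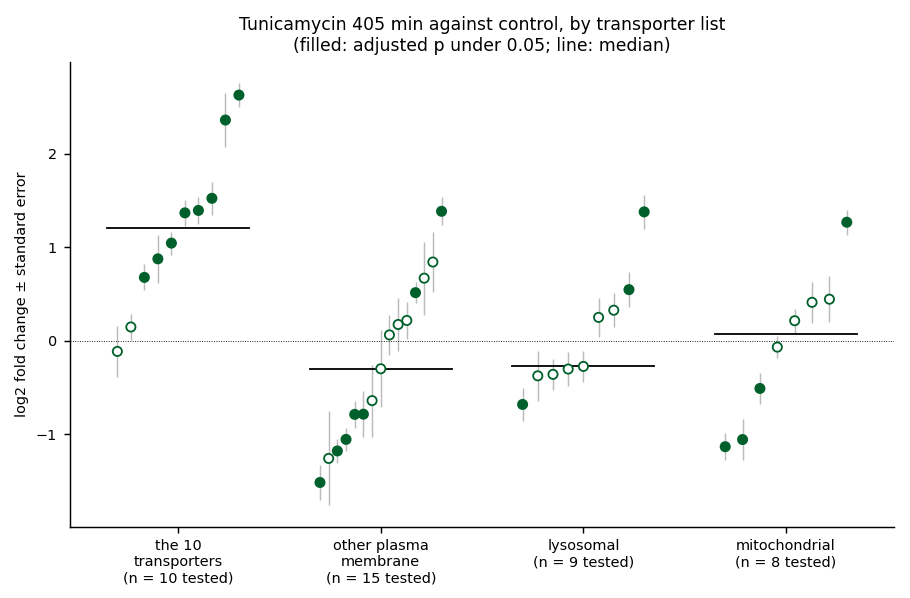
Log2 fold change at 405 min of tunicamycin against control (y axis, whiskers 1 standard error) for each tested gene of 4 lists (x axis), filled where the adjusted p is under 0.05, with a line at the median. The 10 transporters have a median of 1.21, and the other plasma membrane list one of -0.30. All lists were chosen with earlier results of these data known, so the medians describe the lists and are no test between them.

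Genes of the amino acid response, a list of ATF4 pathway members and known targets of which 26 of 27 were in the files, were counted beside the transporters. At 405 min of tunicamycin 22 were higher and 1 lower, the eIF2α kinase gene Eif2ak4, against 23.3% and 23.5% of all genes tested, with a median log2 fold change of 1.56. Fgf21, a secreted hormone, rose by 5.70 (adjusted p = 1.01e-05, edgeR), Ddit3, the transcription factor CHOP, by 5.22 (adjusted p = 2.45e-06, edgeR) and Gdf15, a secreted stress factor, by 5.13 (adjusted p = 6.94e-05, edgeR). The list had 12 higher genes at 45 min of tunicamycin, against 4.01% of genes tested (7 without replicate 2 of the control, 6 without its replicate 3, 5 without replicate 2 of tunicamycin and 4 with the replicate block). Over all genes tested, 510 higher became 84, 79, 55 and 21 in these settings, in the same order. At 135 min none passed in edgeR, where 11 had an unadjusted p under 0.05 and the DESeq2 Wald test called 7 higher and 1 lower. Over all genes tested, 2369 had an unadjusted p under 0.05 and the Wald test called 318 higher and 321 lower. After 135 min of HS 9 were higher, against 4.75% of genes tested, led by Gdf15 at 5.68 (adjusted p = 0.0127, edgeR), Fgf21 at 4.64 (adjusted p = 0.0058, edgeR) and Chac1, a glutathione-degrading enzyme, at 3.09 (adjusted p = 0.0124, edgeR). These 9 became 1 without replicate 2 or 3 of the control or replicate 3 of HS, and 0 with the replicate block. Over all genes tested, 605 higher became 12, 10 and 11 with these omissions, and 0 with the block.

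Cell type markers moved at 405 min of tunicamycin too. Of 10 fibroblast markers 7 were lower there, against 23.5% of genes tested, and their summed level was 22791 to 24861 CPM against 31562 to 42269 CPM in the control. Under HS the same sum went the other way, with 42176 to 74832 CPM at 45 min and 47641 to 80145 CPM at 135 min. The summed level of the 10 markers of other cell types was 30.7 to 31.9 CPM at 405 min and 11.1 to 17.1 CPM in all other groups, mostly through Tubb3, a neuronal tubulin, at 23.4 to 25.2 CPM against 5.15 to 7.13 CPM in the control. Their part in the transporter results was not tested. In bulk RNA, fewer cells of a type and less RNA per cell cannot be told apart.

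Over the 18 samples, the genes most like 3 of the transporters in log2 CPM were named by Pearson's r, as a description of libraries that share 6 groups. For Slc3a2 these were Ets2 (0.976), Ddit3 (0.972) and Sh3tc2 (0.971). For Slc7a5 they were Trim46 (0.973), the transporter Slc6a9 (0.964) and Sqstm1 (0.959), and for Slc7a11 Lsg1 (0.959), Ptcd2 (0.928) and Cdc40 (0.927). Among the 10 transporters, Slc7a5 and Slc6a9 were most alike, Slc3a2 and Slc7a5 had an r of 0.910, and Slc3a2 and Slc7a11 one of 0.552. Slc38a2 had an r of 0.041 with Slc7a5 and of 0.235 with Slc3a2.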

How the data were processed

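Poly(A) RNA of 18 NIH3T3 samples was sequenced on an Illumina HiSeq instrument and processed by the authors on the DNAnexus platform against mm9 and RefSeq genes. For the libraries, the authors name a modified Illumina protocol and also a NuGEN kit. Their methods do not say which samples each served, so a part in the spread between replicates was not tested. The aligner and the counter are not given in the sources used here. Each gene's estimated count, as deposited by the authors, is not normalized, and 23.9% to 27.1% of the values under 100 in a sample were not whole. The deposited RPKM values were made by the authors from counts, gene length and library total. The authors also deposited a score (RPKM centred and scaled within a sample) and a signal (RPKM divided by its root mean square), neither of which was used. Values were joined by gene name, since the coordinates of 741 genes differ between files.

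Estimated counts were rounded and tested with edgeR 4.0.16 in R 4.3.3 (quasi-likelihood test, TMM within each of 10 comparisons, Benjamini-Hochberg adjustment over 12731 genes, each with 1 read or more in all 18 samples, threshold 0.05). The standard error was computed from the fold change and its F statistic. CPM values printed per sample use TMM over all 18 samples, and RPKM serves only to compare genes. Samples were grouped by their labels. No replicate pair was alike enough to be 1 library. The 10 transporters, the other gene lists and the tests were chosen with earlier results of these data known. The heat shock and endoplasmic reticulum stress elements were added after the files had been seen. Genes of the other lists were named where they passed, with separate groups, as the up to 3 largest changes at the last time of either stress, and like genes as the 3 with the highest Pearson's r (prior count 2). Genes named outside this rule were chosen after their values were seen: the light chains of the ratio, Eif2ak4, Tubb3, Cd68 and the stress markers. Promoter sequences are RefSeq's for GRCm38.p6.

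Deviations from the group means were correlated between same-numbered samples over 10857 genes. For tunicamycin at 135 min against control the values were 0.345, 0.327 and 0.306. Replicate 1 stood apart from its replicates in both of these groups, so the values cannot tell a pairing by number from that. The labels state no pairing. In the other 9 comparisons at least 1 pair was negative, and the labels give the samples only a number in common. Alternatives were other filters (at least 1 read in any compared sample, filterByExpr), DESeq2 1.42.0 (size factors, Wald test), total counts without TMM, 1 fit shared by the 6 groups, a block on the replicate number, an offset for transcript GC content (lowess, span 0.3, with a value for 96.4% of genes), both together, a log2 fold change of at least 1, and each sample left out in turn. Scripts were tested on simulated data, and tables were made with Python 3.11.15 and pandas 2.3.3.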

Additional observations from a re-analysis of the deposited data

Results flagged for a closer look

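Some transporters differed between 2 times of tunicamycin, or between HS and tunicamycin at the same time, by a test of that difference itself (edgeR's quasi-likelihood test, adjusted p under 0.05 over 12731 genes, 3 samples per group). Between the 135 and 405 min tunicamycin samples, the log2 differences were 2.09 for Slc3a2, 2.01 for Slc7a11, 1.99 for Slc6a9, 1.15 for Slc1a4, 1.11 for Slc7a5, 1.07 for Slc1a5 (2.09-fold), 0.74 for Slc7a1 and 0.53 for Slc43a1, and in each of the 8 all samples at 405 min were above all at 135 min. From 45 to 135 min of tunicamycin, Slc1a4 changed by -0.83. At 45 min, Slc1a4 differed between HS and tunicamycin by -1.34.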

How the results depend on the processing

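The 16 calls at 405 min of tunicamycin, against control and against 135 min, kept their direction in all 256 values from the alternatives and their side of the threshold in 240. Their counts of higher transporters, 8 in both comparisons, ranged from 6 to 9 over all alternatives. Earlier and HS calls depended on the setting, and the cause was not tested. Over the 60 fold changes of the 10 transporters that were tested under alternatives, 869 of 960 values kept direction and call. Total counts without TMM moved the median log2 fold change of all genes by -0.27 for HS against tunicamycin at 45 min, by -0.16 at 45 min and -0.17 at 135 min of HS against control, and by 0.11 at 45 min and -0.10 at 405 min of tunicamycin against control.

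Higher transporters at 45 min of tunicamycin, 3 with the main settings, were 6 without TMM, 5 with the DESeq2 Wald test, 5 with the GC offset and 5 with the replicate block and GC offset together. Over all genes tested, 510 higher became 878, 972, 1048 and 345, in the same order. The replicate block alone gave 0 there, beside 21 of all genes. Whether the replicate numbers pair the samples is not stated by the labels. At 135 min of HS, 1 higher transporter became 3 in the shared fit, 2 with the GC offset and 0 with the replicate block, and 0 lower became 1 without TMM, 1 with the Wald test, 2 in the shared fit and 2 with the GC offset. Of all genes, 605 higher became 1829, 1432 and 0, and 336 lower became 426, 927, 1414 and 1180. At 45 min of HS, 0 lower became 1 with the Wald test and 2 in the shared fit, and 0 of all genes became 65 and 420. At 135 min of tunicamycin, 0 higher became 1 in the shared fit and 0 lower became 1 with the Wald test. Of all genes, 16 higher became 233 and 1 lower became 321. For 135 against 45 min of HS, 0 higher became 1 with the Wald test, 2 in the shared fit and 1 with the GC offset. Of all genes, 0 higher became 194, 459 and 75. For 135 against 45 min of tunicamycin, 1 lower became 0 with DESeq2 size factors, 3 without TMM, 6 with the Wald test, 2 in the shared fit, 4 with the GC offset, 0 with the replicate block, 0 with block and GC offset, and 0 at a log2 fold change of at least 1. Of all genes, 22 lower became 14, 37, 294, 65, 131, 0 and 0 in these settings up to block and GC offset. For HS against tunicamycin at 45 min, 1 lower became 3 without TMM, 4 with the Wald test, 5 in the shared fit, 7 with the GC offset and 0 with the replicate block, with or without the GC offset. Of all genes, 18 lower became 95, 379, 551, 250 and 0. At 135 min, 0 higher became 2 with the Wald test, 1 in the shared fit and 2 with the GC offset, and 0 lower became 1 in the shared fit. Of all genes, 166 higher became 715, 998 and 822, and 104 lower became 773.

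Leaving out 1 sample gave 0 to 1 higher and 0 to 2 lower at 45 min of HS, 0 to 2 higher and 0 to 1 lower at 135 min of HS, 1 to 6 higher at 45 min of tunicamycin (6 without replicate 1 of the control), 0 to 4 lower for 135 against 45 min of tunicamycin and 0 to 9 lower for HS against tunicamycin at 45 min (9 without replicate 3 of HS). In the same order, the shares of all genes tested were 0% to 21.5% and 0% to 23.9%, 0.0785% to 12.1% and 0% to 7.32%, 0.432% to 10.9%, 0% to 0.872%, and 0% to 28.8%. Higher genes of the amino acid response ranged likewise from 1 to 10 at 135 min of HS, from 5 to 17 at 45 min and from 21 to 23 at 405 min of tunicamycin. At 405 min the share of all genes called higher ranged from 15.8% to 31.6%.

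Reversed directions were all of transporters that were not called. The log2 fold change of Slc38a2 became 0.24 with the GC offset and 0.28 with block and GC offset at 45 min of HS, 0.0257 and 0.0657 with these at 135 min of HS, 0.0371 without TMM at 45 min of tunicamycin and 0.0056 with block and GC offset at 135 min of tunicamycin. That of Slc7a11 at 135 min of HS became 0.34 with the GC offset, with or without the block. With 1 sample left out, the ranges were -0.45 to 0.0041 for Slc7a11 at 135 min of HS, -0.16 to 0.0402 for Slc38a2 at 45 min of tunicamycin, -0.10 to 0.0317 for Slc1a5 at 135 min of tunicamycin and -0.31 to 0.0877 for Slc7a3 at 405 min. For tunicamycin at 135 min against control, where all same-numbered pairs correlated positively, the replicate block changed no call of the 10 transporters (0 higher and 0 lower). It called 0 of all genes tested there.

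Depth limits only Slc7a3, at 8 to 64 reads per sample, and its counting error adds to the spread between samples.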
